A study of Mus musculus with 6 samples.

Results

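The genes described here are 10 regulators and surface proteins of blood stem and progenitor cells, *Myb*, *Myc*, *Sox4*, *Gata1*, *Gata2*, *Meis1*, *Cd34*, *Kit*, *Flt3* and *Prom1*. They were chosen by name from the gene symbols of the deposited table, and all 10 were found, each once, among 55401 genes. Their mRNA was measured by bulk RNA-seq in neutrophils of the femoral and tibial bone marrow, purified by flow sorting on the surface markers CD45, CD11b and Ly6G. The Lig group comprised 3 libraries of mice with silk ligatures tied around the maxillary and mandibular second molars for 14 days, a model of periodontitis (inflammation of the tissue around the teeth). The Ctrl group comprised 3 libraries of mice kept without ligatures over the same 14 days, with no sham procedure described for these libraries. All mice were wild-type C57BL/6 males of 8 weeks, and each library held RNA of cells pooled from 5 mice, so a replicate is a pool and the spread given is that between pools. The comparison addressed how the transcripts of marrow neutrophils differ between mice with and without ligatures.

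These genes act at the opposite end of the lineage from the cells that were sorted. MYB, MYC, SOX4, GATA1, GATA2 and MEIS1 are transcription factors of stem and progenitor cells, and most of their mRNAs decline as a progenitor matures into a segmented neutrophil. KIT and FLT3 are receptor tyrosine kinases that bind the growth factors stem cell factor and FLT3 ligand, while CD34 and CD133, the product of *Prom1*, are surface glycoproteins used to mark progenitors. Each also has a home outside the stem cell, such as GATA1 in erythroid cells, megakaryocytes and mast cells, GATA2 in mast cells and basophils, and SOX4 in B cell precursors.

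The genes of the sort were abundant. *Ly6g* stood at 392 ± 18.2 FPKM in Lig and 331 ± 6.55 FPKM in Ctrl (mean ± SD, n = 3 each, as below), *Itgam* (CD11b) at 258 ± 4.86 and 208 ± 38.6 FPKM, and *Ptprc* (CD45) at 58.5 ± 2.43 and 55.3 ± 4.03 FPKM. FPKM are fragments scaled to the length of the transcript and to the mapped fragments of the library. *Itgam* shares its strand with the overlapping *Gm49368*, which had 160.3 to 195.8 FPKM in Lig and 145.6 to 215.1 FPKM in Ctrl, so the level of *Itgam* is uncertain. The 10 regulators lay far below, with means over the 6 libraries between 0.142 FPKM (*Meis1*) and 5.42 FPKM (*Sox4*), at the 37.8th to 81.3rd percentile of the 25107 genes with any count. Of 18 stem cell and multipotent progenitor markers, *Cd48* alone reached a mean of 1 FPKM over the 6 libraries. The next highest means were those of *Ly6a* (0.867 FPKM), *Eng* (0.777 FPKM) and *Cd27* (0.658 FPKM), close to *Cd34* (0.823 FPKM) and *Flt3* (0.693 FPKM). *Mecom*, *Hoxb5*, *Fgd5* and *Slamf1* were close to absent, with means of at most 0.0267 FPKM in either group. The label of stem and progenitor regulators describes the genes, while the cells were sorted as neutrophils. Total counts per library were 50605309 to 61455112, and low values clustered at multiples of 4, so that roughly 4 counts may stand for 1 read pair.

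Of the 7 regulators that passed the main filter on low values, 3 were lower and 1 was higher in Lig. *Gata1*, *Sox4* and *Myb* fell and *Prom1* rose, while *Myc*, *Kit* and *Gata2* did not pass the test (edgeR quasi-likelihood test on counts, Benjamini-Hochberg adjusted p under 0.05 over the 9632 genes with a mean of at least 1 FPKM). Over all genes tested, 6.43% were called lower and 3.96% higher. *Cd34*, *Flt3* and *Meis1* had means under 1 FPKM and were taken from a fit of all 16707 genes with a mean of at least 0.1 FPKM, in which all 10 regulators were tested. There *Cd34* fell as well, giving 4 lower and 1 higher of 10, where 3.28% of all genes were called lower and 2.33% higher. The median log2 fold change of the 10 genes was -0.48, against -0.02 over all genes of that fit, and 9 of the 10 values were negative. In bulk RNA, fewer cells of a type and less RNA per cell cannot be told apart, for these and all values below.

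Judged by the libraries alone, each Lig library was below each Ctrl library for 6 genes (*Myb*, *Myc*, *Sox4*, *Gata1*, *Cd34* and *Flt3*) and above for *Prom1*, while the ranges overlapped for *Kit*, *Gata2* and *Meis1*. Among the 16707 genes the corresponding shares were 22.5% lower and 6.96% higher. The higher share depends on scaling: of all calls among the 9632 genes, 38.1% were higher with TMM scaling and 7.3% to 19.3% with library size alone, FPKM or TPM. Among the called regulators *Prom1* lost its call with TPM but kept it with limma on FPKM. *Cd34* lost its call with limma on FPKM as well as on TPM, and in edgeR without a filter, so its loss is not particular to TPM. The plot of FPKM by library shows the separation gene by gene.

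**Figure D1:**
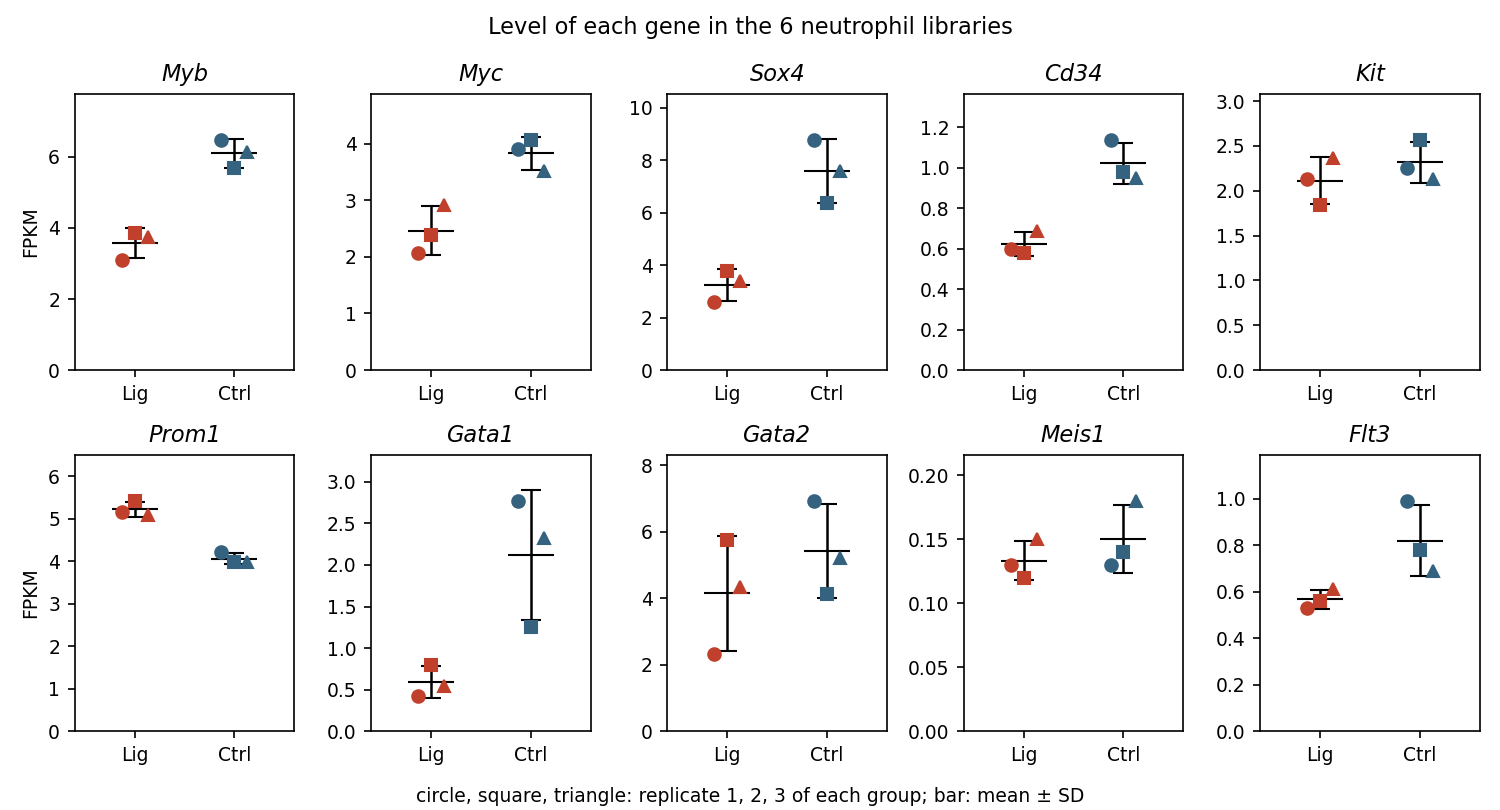
FPKM of the 10 stem and progenitor regulators in each library (points, Lig left of Ctrl) with the mean and SD of 3 libraries per group. *Myb*, *Sox4*, *Gata1*, *Myc*, *Cd34* and *Flt3* lie lower in each Lig library than in any Ctrl library, *Prom1* lies higher, and *Kit*, *Gata2* and *Meis1* overlap.

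The order of the genes by level was not the same in both groups. In Lig, *Prom1* led with 5.22 ± 0.176 FPKM, ahead of *Gata2*, *Myb*, *Sox4*, *Myc* and *Kit*, and then *Cd34*, *Gata1*, *Flt3* and *Meis1*. In Ctrl, *Sox4* led with 7.59 ± 1.21 FPKM, ahead of *Myb*, *Gata2*, *Prom1*, *Myc*, *Kit*, *Gata1*, *Cd34*, *Flt3* and *Meis1*. Neighbours in the Lig order were separate in their library ranges only between *Kit* and *Cd34* and between *Flt3* and *Meis1*. In Ctrl they were separate between *Myc* and *Kit*, between *Gata1* and *Cd34* and between *Flt3* and *Meis1*.

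*Myb* encodes a transcription factor that keeps myeloid and lymphoid progenitors dividing and immature. It had 3.10, 3.87 and 3.75 FPKM in Lig and 6.49, 5.68 and 6.14 FPKM in Ctrl. The Lig mean was 3.57 ± 0.414 FPKM and the Ctrl mean 6.10 ± 0.406 FPKM, so the distance between groups was several times the spread within them. The log2 fold change was -0.69 ± 0.09 (SE, edgeR adjusted p = 0.00925), and the call held when any 1 library was left out. *Myb* lies on the minus strand of chromosome 10 (GRCm38, 21124935 to 21160984). The predicted gene *Gm26577* overlaps it on the opposite strand, and whether the libraries keep strand is not given in the sources used here. *Gm26577* had 1.01, 1.74 and 1.22 FPKM in Lig and 1.26, 1.68 and 0.98 FPKM in Ctrl, with overlapping groups.

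The 250 bases before the RefSeq start of *Myb* (GRCm38.p6, chr10:21160985-21161234, minus strand) are shown because *Myb* had the smallest adjusted p of the 10 genes. They are 81.2% G or C and hold none of the 6 motifs searched, so no letter is in capitals.
Myb: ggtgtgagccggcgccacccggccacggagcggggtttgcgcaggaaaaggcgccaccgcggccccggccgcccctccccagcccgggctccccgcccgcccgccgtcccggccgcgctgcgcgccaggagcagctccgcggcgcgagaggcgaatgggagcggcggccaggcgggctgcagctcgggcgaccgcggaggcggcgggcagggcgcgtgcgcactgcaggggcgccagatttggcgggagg

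RefSeq promoters of this length were found for 9 of the 10 genes, 12 in all, with none for *Myc*. On both strands they were searched for the GATA motif in the forms AGATAA or TGATAA, the MYB motif in the forms CAACNG or TAACNG, the E-box of MYC as CACGTG, the MEIS motif as TGACAG, the RUNX motif as TGTGGT and the TATA motif as TATAAA, and no form is part of another. Matches were found for 2 of these motifs. MYB letters were in 4 promoters, of *Cd34*, *Meis1* and both of *Prom1* (33.3% of 12, against 43.1% of all 32851 promoters), and RUNX letters in 2 promoters, of *Prom1* and *Meis1* (16.7%, against 14.0%). The matches in *Cd34*, which fell in the wider fit, and in the first *Prom1* promoter, which belongs to the 1 gene that rose, are shown with their flanks and with the motif in capitals. A match of letters is a description and not a binding site.
Cd34, MYB on the opposite strand (chr1:194938750-194938779, plus strand): caagatgacacaCGGTTAaaagtgaagtag
Cd34, MYB (chr1:194938800-194938820, plus strand): ctcaccaagacgCAACAGgga
Prom1, MYB (chr5:44101842-44101871, minus strand): ccctagaggacgCAACAGgttcccagagtc
Prom1, RUNX (chr5:44101743-44101772, minus strand): cccaatcactctTGTGGTgccctggggctg

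*Sox4* encodes an HMG-box transcription factor required for early B cell development and active in myeloid progenitors. The libraries held 2.58, 3.77 and 3.40 FPKM of it in Lig and 8.79, 6.37 and 7.60 FPKM in Ctrl. The highest Lig library was below the lowest Ctrl library by more than 2 FPKM. The log2 fold change was -1.15 ± 0.16 (edgeR adjusted p = 0.0101), and this call too held without any 1 library. *Sox4* has a single annotated transcript (chromosome 13, 28948919 to 28953713, minus strand) and no overlapping gene.

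*Gata1*, the master regulator of erythroid and megakaryocytic differentiation, showed the largest change of the 10 genes by fold. It had 0.42, 0.80 and 0.55 FPKM in Lig and 2.77, 1.25 and 2.33 FPKM in Ctrl, with a log2 fold change of -1.76 ± 0.35 (edgeR adjusted p = 0.0256). The counts behind these values were low, 72, 112 and 91 in Lig and 473, 211 and 341 in Ctrl, and the Ctrl libraries differed among themselves by more than 2-fold. The direction held throughout, but the call was lost without Lig replicate 1 (adjusted p = 0.0689), Lig replicate 3 (0.0895), Ctrl replicate 1 (0.0738) or Ctrl replicate 3 (0.0813). *Gata1* lies on chromosome X (7959260 to 7978071, minus strand).

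*Gata2*, a factor needed for stem cell maintenance and for mast cell and basophil development, varied more within the groups than between them. It had 2.34, 5.77 and 4.33 FPKM in Lig and 6.93, 4.12 and 5.20 FPKM in Ctrl. The log2 fold change was -0.31 ± 0.32 (edgeR adjusted p = 0.572), and it moved between -0.62 without Lig replicate 2 and -0.03 without Lig replicate 1. *Gata2* lies on chromosome 6 (88193891 to 88207032, plus strand). The ratio of *Gata1* to *Gata2* FPKM within a library, in which scaling cancels, was 0.180, 0.139 and 0.127 in Lig and 0.400, 0.303 and 0.448 in Ctrl, without overlap.

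*Myc*, which drives growth and ribosome production in dividing progenitors, had 2.06, 2.39 and 2.92 FPKM in Lig and 3.91, 4.07 and 3.51 FPKM in Ctrl. The groups did not overlap, yet the log2 fold change of -0.57 ± 0.16 missed the threshold (edgeR adjusted p = 0.0618). The call depended on the method, since DESeq2 (adjusted p = 0.0117), limma on log2(FPKM + 1) (0.0464) and library size scaling (0.0427) passed. *Myc* lies on chromosome 15 (61985391 to 61990350, plus strand).

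*Meis1*, a homeobox factor of stem cells, was near the limit of detection. It had 0.13, 0.12 and 0.15 FPKM in Lig and 0.13, 0.14 and 0.18 FPKM in Ctrl, from 93, 74 and 106 counts in Lig and 98, 104 and 117 counts in Ctrl. No difference was detectable at this depth (log2 fold change -0.10 ± 0.25, edgeR adjusted p = 0.853), and the sign turned without Ctrl replicate 3. *Meis1* lies on chromosome 11 (18879817 to 19018985, minus strand).

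*Prom1* was the one regulator with more mRNA in Lig. CD133, its product, is a membrane glycoprotein of stem and epithelial cells that sits on membrane protrusions. The libraries held 5.15, 5.42 and 5.09 FPKM in Lig and 4.22, 3.99 and 3.98 FPKM in Ctrl, the tightest groups among the 10 genes relative to their means. The log2 fold change was 0.43 ± 0.06 (edgeR adjusted p = 0.0111). It was similar without Ctrl replicate 3 (0.42, adjusted p = 0.0593), although the call was lost. With FPKM rescaled to TPM, so that each library sums to the same total, which moved the median of all genes to -0.14, *Prom1* had a log2 fold change of 0.26 and was not called (limma adjusted p = 0.0531). *Prom1* has 19 annotated transcripts on chromosome 5 (43993620 to 44101958, minus strand), and *Gm42716* and *Gm16401*, which overlap it, had at most 0.09 FPKM in any library.

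*Cd34*, a sialomucin of stem and progenitor cells and of blood vessel lining, had 0.60, 0.58 and 0.69 FPKM in Lig and 1.14, 0.98 and 0.95 FPKM in Ctrl. It fell in the fit of 16707 genes with a log2 fold change of -0.60 ± 0.14 (edgeR adjusted p = 0.0496). The call sat at the threshold and was lost without any 1 of the 6 libraries (edgeR adjusted p = 0.0957 to 0.143). In those fits the log2 fold change was between -0.68 and -0.53. *Cd34* lies on chromosome 1 (194938819 to 194961279, plus strand) and is overlapped on the opposite strand by *Gm16897*, with 0.00, 0.38 and 0.13 FPKM in Lig and 0.43, 0.16 and 0.20 FPKM in Ctrl.

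The receptor genes *Kit* and *Flt3* did not pass the test. *Kit*, the receptor of stem cell factor, had 2.13, 1.84 and 2.37 FPKM in Lig and 2.25, 2.57 and 2.13 FPKM in Ctrl (log2 fold change -0.06 ± 0.13, edgeR adjusted p = 0.817). Its sign turned without Lig replicate 2 or Ctrl replicate 2. *Flt3*, the receptor of early lymphoid and dendritic progenitors, had 0.53, 0.56 and 0.61 FPKM in Lig and 0.99, 0.78 and 0.69 FPKM in Ctrl (-0.43 ± 0.17, adjusted p = 0.187). The 2 genes lie on chromosome 5, *Kit* at 75574916 to 75656722 on the plus strand and *Flt3* at 147330741 to 147400489 on the minus strand.

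**Figure D2:**
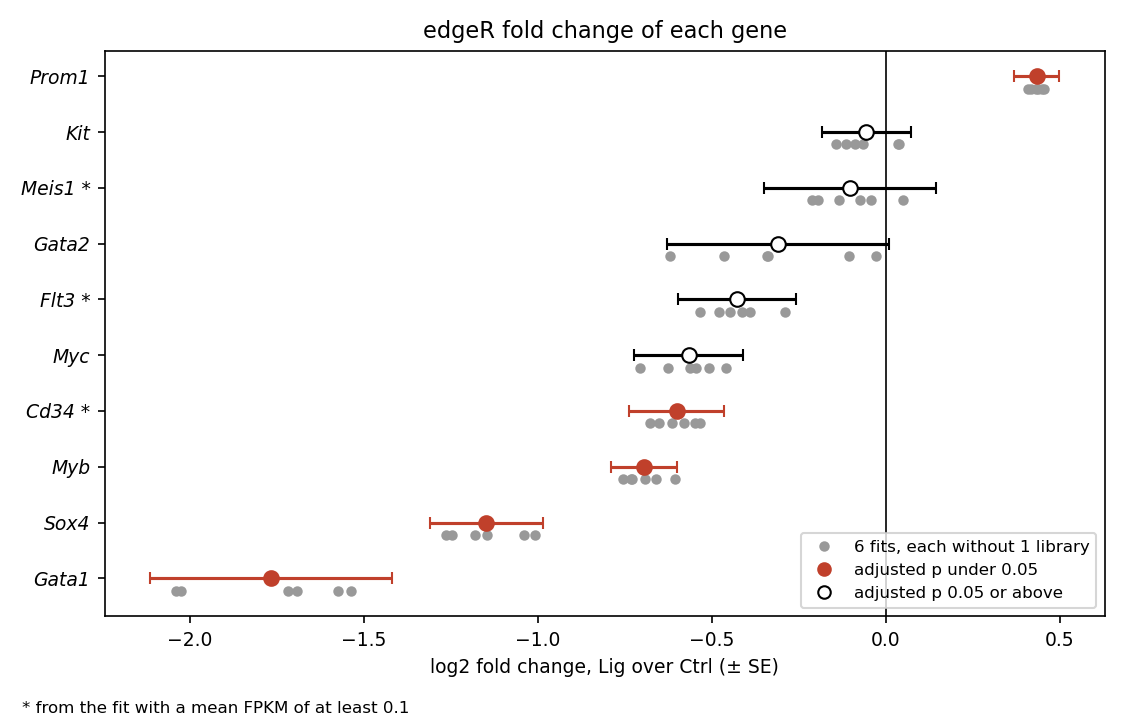
Log2 fold change of Lig over Ctrl for the 10 genes from edgeR (large points, filled where adjusted p was under 0.05, bars are the SE; grey points are the fits without 1 library), with starred genes taken from the wider fit. *Gata1* and *Sox4* lie farthest below 0 at -1.76 and -1.15, *Prom1* alone lies above 0 at 0.43, and *Kit* and *Meis1* lie near 0.

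Of 15 tested partners and paralogs of the 10 genes, 3 were lower and 1 higher, with a median log2 fold change of -0.07 (1 lower and 0 higher without Lig replicate 3, Ctrl replicate 1 or Ctrl replicate 3). Those that fell were *Zfpm1* (FOG1, the cofactor of GATA1), with 3.54 ± 0.597 FPKM in Lig and 10.2 ± 2.59 FPKM in Ctrl (-1.45 ± 0.20, edgeR adjusted p = 0.00951), and the MAX partners *Mnt* (-0.55 ± 0.09, adjusted p = 0.0171) and *Mga* (-0.47 ± 0.11, adjusted p = 0.0363). *Max*, the obligate partner of MYC, had 119 FPKM in Lig and 110 FPKM in Ctrl and did not pass (0.18, adjusted p = 0.0634). Of 22 further stem and progenitor transcription factors tested, 5 were lower and 1 higher, with a median of -0.18 (1 or 2 lower without any 1 library other than Ctrl replicate 2). *Tcf3* (E2A, of early B cells) fell by 0.53 on the log2 scale (adjusted p = 0.0201) and *Runx3* by 0.52 (adjusted p = 0.026).

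Genes that MYC is known to activate for ribosome and nucleotide synthesis gave 17 of 24 tested lower and 0 higher in the edgeR fit, with a median of -0.57. This count depended on the libraries, with 1 lower without Lig replicate 3, 2 without Ctrl replicate 3, 4 without Ctrl replicate 1, 5 without Lig replicate 1, 11 without Lig replicate 2 and 13 without Ctrl replicate 2. Among them were *Hspd1*, a mitochondrial chaperone, with 6.05 ± 0.509 FPKM in Lig and 10.6 ± 1.11 FPKM in Ctrl (edgeR adjusted p = 0.0105), the RNA helicase gene *Ddx21* (-0.42 ± 0.07, adjusted p = 0.0125) and the nucleolar *Gnl3* (-0.53 ± 0.09, adjusted p = 0.0135). Of 25 proliferation genes, 8 were lower and 1 higher (median -0.38; 2 lower without Lig replicate 3, Ctrl replicate 1 or Ctrl replicate 3, and 4 without Lig replicate 1), and the 3 with the smallest p were the replication helicase subunits *Mcm6*, *Mcm4* and *Mcm2*. Genes of granulocyte-monocyte progenitors and promyelocytes, the stage just above the sorted cells, gave 0 lower and 1 higher of 17 (median -0.16). Of the 17 values, 10 were negative, and the most negative, that of *Mpo*, missed the threshold (-0.65 ± 0.17, edgeR adjusted p = 0.0517). The gene called higher was *Serpinb1a*, an inhibitor of granule proteases, at 90.5 ± 3.07 FPKM in Lig and 67.5 ± 0.808 FPKM in Ctrl (0.50 ± 0.05, adjusted p = 0.00435). *Cd48* was the one gene of the stem cell and multipotent progenitor list tested at a mean of 1 FPKM. It encodes a lymphoid and progenitor surface protein that the study's gates place on multipotent progenitors and not on stem cells. *Cd48* had 1.18, 2.19 and 1.71 FPKM in Lig and 3.39, 3.33 and 3.19 FPKM in Ctrl (-0.88 ± 0.24, edgeR adjusted p = 0.0598). DESeq2 and limma called it lower. In the fit of genes with at least 0.1 FPKM, 1 of 9 tested markers of that list was lower and 0 higher. That marker was *Eng*, endoglin of stem cells and blood vessel lining, with 0.41, 0.54 and 0.52 FPKM in Lig and 1.33, 0.88 and 0.98 FPKM in Ctrl (-0.99 ± 0.21, edgeR adjusted p = 0.0395). The 18 stem cell and multipotent progenitor markers summed to 3.71 to 5.82 FPKM in Lig and 7.55 to 8.04 FPKM in Ctrl, of which *Cd48* gave the largest part.

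**Figure D3:**
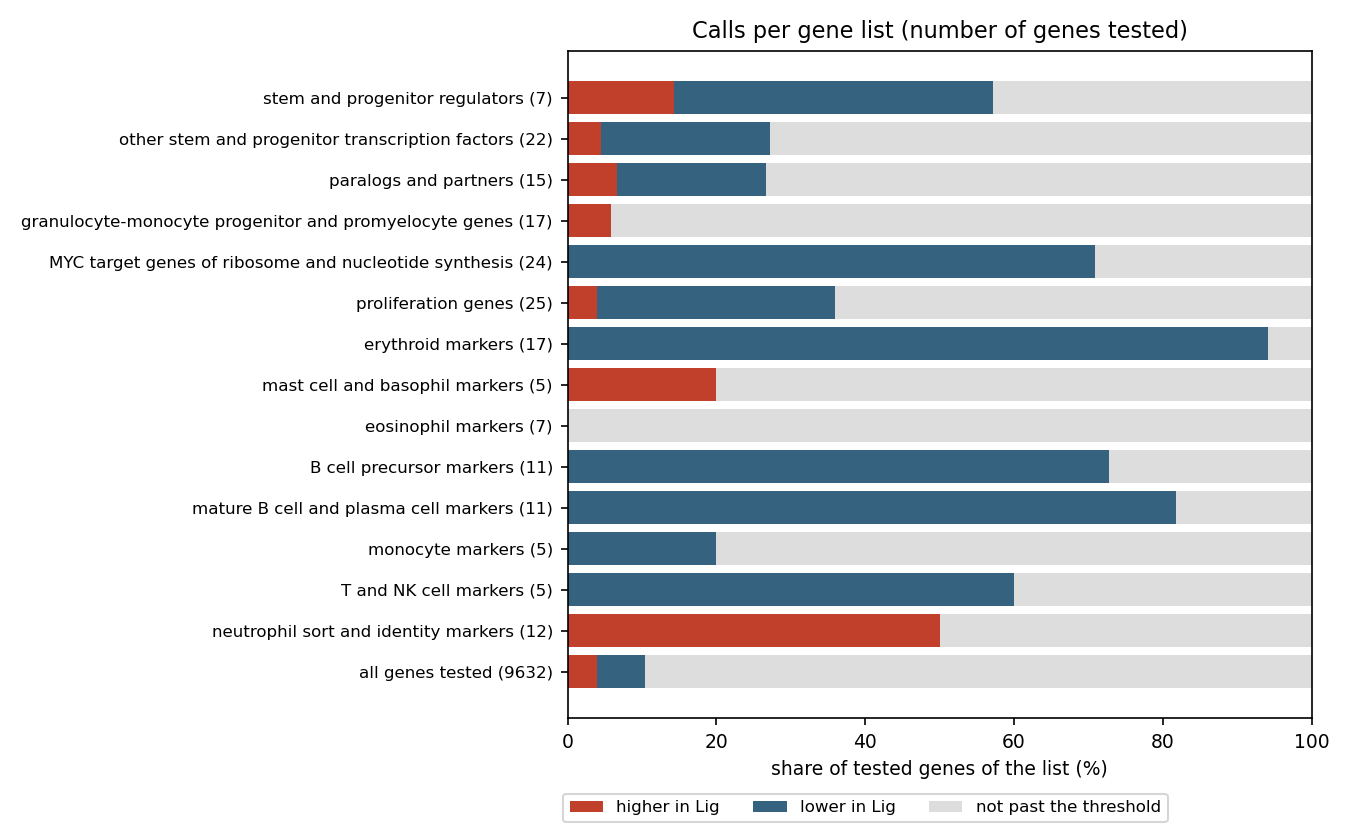
Number of genes called lower, called higher and not called in Lig (edgeR adjusted p under 0.05) as a share of the genes tested in each list, for lists with at least 5 tested genes and for all 9632 genes. The largest shares of lower calls are those of erythroid markers (16 of 17), mature B cell markers (9 of 11), B cell precursor markers (8 of 11) and MYC targets (17 of 24).

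Markers of other cell types moved with several of the regulators. Erythroid markers, among which *Gata1* and its cofactor belong by function, summed to 407 to 524 FPKM in Lig and 1348 to 1817 FPKM in Ctrl, and 16 of 17 tested were lower, led by the haemoglobin genes *Hbb-bs*, *Hba-a2* and *Hbb-bt*. B cell precursor markers summed to 56.2 to 63.2 FPKM in Lig and 110 to 146 FPKM in Ctrl, with 8 of 11 lower, among them *Cd79a* and *Cd79b*. Mature B cell and plasma cell markers gave 9 of 11 lower, monocyte markers 1 of 5 (*F13a1*), T and NK cell markers 3 of 5 (*Lck*, *Tcf7* and *Trbc2*) and endothelial and stromal markers 1 of 2 (*Col1a1*). Mast cell and basophil markers summed to 391 to 474 FPKM in Lig and 368 to 462 FPKM in Ctrl, with 0 of 5 lower and *Hdc* (histidine decarboxylase) higher, while *Mcpt4*, *Tpsb2* and *Tpsab1*, which define mast cells, were listed at 0 in every library. *Hdc* gave most of that sum, and the other 11 markers summed to 71.6, 189 and 154 FPKM in Lig and 197, 109 and 142 FPKM in Ctrl. Of megakaryocyte, eosinophil and dendritic cell markers none of 2, 7 and 3 tested were called. Neutrophil identity genes gave 6 of 12 higher and 0 lower, led by *Ngp*, *Ltf* and *Camp* (2 higher without Ctrl replicate 3). Without 1 library, the lower calls were 11 to 15 for erythroid, 4 to 8 for B cell precursor, 5 to 7 for mature B cell and 0 to 1 for T and NK cell markers. The part of these cell types in the values of the regulators was not tested.

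Ratios of a regulator to a marker of such a cell type within a library differed in how far they varied. *Cpa3*, the carboxypeptidase of mast cells and basophils, had 2.28, 6.06 and 4.56 FPKM in Lig and 6.10, 4.06 and 4.90 FPKM in Ctrl. The ratio of *Gata2* to *Cpa3* was 1.03, 0.952 and 0.950 in Lig and 1.14, 1.01 and 1.06 in Ctrl, while *Gata2* itself varied 2.96-fold over the 6 libraries. *Gata1* differed between the groups, and its ratio to *Slc4a1*, the anion exchanger of red cells, was 0.162 ± 0.0266 in Lig and 0.162 ± 0.038 in Ctrl. The ratio of *Myb* to *Mpo*, the myeloperoxidase of promyelocytes, was 0.0801 ± 0.0122 in Lig and 0.0811 ± 0.0071 in Ctrl. *Mpo* alone had 45.8 ± 11.2 FPKM in Lig and 75.4 ± 1.87 FPKM in Ctrl (-0.65 ± 0.17, edgeR adjusted p = 0.0517). This was the most negative value of the promyelocyte list. *Prtn3* of the same list was level, with 11.67 ± 2.93 FPKM in Lig and 11.55 ± 3.86 FPKM in Ctrl (0.08 ± 0.27). The ratio to *Mpo* therefore does not stand for every gene of that stage. *Sox4* over *Cd79a*, a component of the B cell receptor, gave 0.123 ± 0.0179 in Lig and 0.138 ± 0.0093 in Ctrl, with overlapping groups. Other markers of the same cell types gave looser or shifted ratios. *Gata2* over *Mcpt8*, a basophil protease, was 0.136 ± 0.0127 in Lig and 0.163 ± 0.007 in Ctrl, without overlap. *Gata1* over *Klf1*, an erythroid transcription factor, was 2.0, 0.678 and 0.505 in Lig and 0.965, 0.687 and 0.777 in Ctrl. *Flt3* over *Siglech*, of plasmacytoid dendritic cells, ran between 0.354 and 0.736 in Lig and between 0.319 and 0.656 in Ctrl, a wider spread by fold than that of *Flt3* itself. These pairs were chosen with their values known, so the ratios describe the libraries and carry no test.

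**Figure D4:**
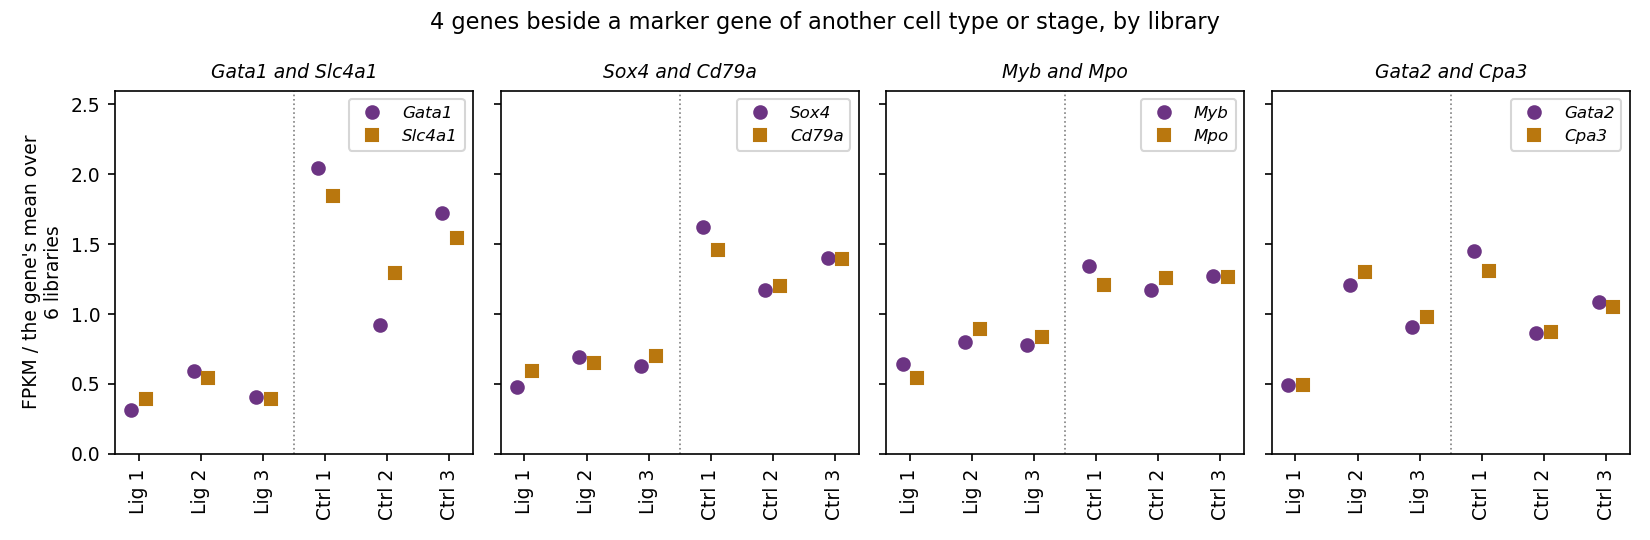
FPKM of 4 regulators (circles) and of a marker gene (squares) in each library, each divided by the gene's mean over the 6 libraries, with Lig left of Ctrl. *Gata1*, *Sox4* and *Myb* and their markers are low in all Lig libraries, whereas *Gata2* and *Cpa3* are lowest in Lig replicate 1 and high in Ctrl replicate 1 and Lig replicate 2.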

How the data were processed

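RNA of 3 Lig and 3 Ctrl pools of marrow neutrophils was sequenced as paired-end reads. The submitters' processing notes name cutadapt 1.9, FastQC and the mouse build GRCm38. No aligner, counting program or strandedness is stated there or in the study's methods. FPKM and expected counts of 6 libraries were deposited by the authors in 1 table. The deposited expected counts were whole numbers, and 40.2% to 41.3% of those from 1 to 16 were multiples of 4 (25% if even), so that they may be back-calculated at about 4 per read pair. Groups and replicate numbers came from the labels.

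Counts were scaled by TMM and tested with edgeR 4.0.16 in R 4.3.3 (quasi-likelihood, group as the only term, 2-sided, Benjamini-Hochberg). Genes with a mean of at least 1 FPKM were tested, and genes under it were taken from a second fit at 0.1 FPKM. The test was checked on simulated counts. Alternatives used other filters and scalings, a replicate block, DESeq2 1.42.0, limma 3.58.1 on log2(FPKM + 1), counts divided by 4 and each library left out. Replicates are pools, so p-values set the group difference against the spread between pools and not between mice. Ranges of the groups are called separate where every Lig library lies below every Ctrl library, or every Lig library lies above every Ctrl library.

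The 10 genes and the 17 other lists were chosen with earlier results of these data known. Named genes were the 10, the genes of the sort, and up to 3 genes with the smallest p in each other list. Some genes are not reported here. *Max*, *Slc4a1*, *Mcpt8*, *Klf1*, *Prtn3*, *Eng*, *Ly6a*, *Cd27*, *Mecom*, *Hoxb5*, *Fgd5*, *Slamf1*, *Mcpt4*, *Tpsb2*, *Tpsab1* and the overlapping genes were named after their values were seen. Promoters are from RefSeq (GRCm38.p6).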

Additional observations from a re-analysis of the deposited data

How the results depend on the processing

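Against 3 lower and 1 higher of the 7 regulators tested in the main fit, 0 higher and 1 lower were called at a mean of at least 5 FPKM, where 1 of them was tested, and 0 higher with TPM. Over all genes, against 381 higher and 619 lower, calls were 228 and 376 at 5 FPKM, 749 and 994 with DESeq2, and 97 and 1232 with TPM; 410 were lower without a filter, and 168 were higher with library size alone and 165 with limma at either pseudocount. The cause was not tested. With a replicate block, 0 of the 10 genes were called in either direction, and 16 genes were higher and 38 lower. The labels do not state whether libraries of the same number belong together. Deviations of same-numbered libraries from their group means correlated at -0.061, -0.096 and 0.039, and those of differently numbered libraries at -0.066 to 0.125. With 3 libraries per group, these values showed no pairing but cannot exclude it. Leaving out 1 library gave 83 to 249 genes higher and 195 to 445 lower, and 0 to 1 higher and 2 to 3 lower of the 10 genes. In these fits the log2 fold change of *Kit* was between -0.14 and 0.04 and that of *Meis1* between -0.21 and 0.04997 (without Ctrl replicate 3). Of all alternative values for the 10 genes, 129 kept direction and call, 21 lost the call, 5 gained it (all *Myc*) and 3 turned sign. With 3 pools per group and, at 4 counts a pair, few read pairs behind *Gata1*, *Meis1*, *Cd34* and *Flt3*, small changes of these genes could not be detected.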
